A study of Homo sapiens with 6 samples.

Results

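The genes examined here encode the proteasome and its partners: every gene name in the deposited tables that starts with PSM, followed by a letter from A to G and then digits alone. This rule found 48 of 35130 gene names. It takes in the subunits of the 20S core (PSMA and PSMB, with the immunoproteasome subunits PSMB8, PSMB9 and PSMB10), the ATPase and non-ATPase subunits of the 19S regulatory particle (PSMC and PSMD), the activators and an inhibitor of the core (PSME and PSMF1) and the core's assembly chaperones (PSMG). Expression was measured by RNA-seq in an established human neuroblastoma line with amplified MYCN, SK-N-BE(2). Cells received either DMSO, the solvent, or NEN at 1 µM, and both groups were collected at 24 h. Each group has 3 libraries, which the labels call biological replicates. NEN is given in the labels by this abbreviation alone. In published work on neuroblastoma NEN stands for niclosamide ethanolamine, which uncouples mitochondrial respiration from ATP synthesis, and this is taken as background. Both groups are the same line in culture, so 1 cell line stands for the disease, and since the labels do not say how the replicate cultures were kept apart, p-values measure the spread between these libraries, which may be technical.

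The proteasome degrades proteins that carry ubiquitin chains and supplies peptides for MHC class I. Its 20S core is a barrel of stacked rings: outer rings of alpha subunits, which gate entry, and inner rings of beta subunits, of which PSMB5, PSMB6 and PSMB7 cut the substrate. The 19S particle caps the barrel. Its base unfolds the substrate with a ring of ATPases and its lid removes the ubiquitin chain. Cells that respond to interferon can exchange the catalytic subunits for PSMB8, PSMB9 and PSMB10, and subunit genes are induced together by the transcription factor NFE2L1 when proteasome activity is short.

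Values are TPM, a transcript abundance scaled by transcript length and by library total. A lower TPM is therefore a smaller share of the library, and fewer cells with a transcript and less of it per cell cannot be told apart in these bulk samples. TPM keeps no read counts, so sequencing depth is unknown. The listed names of a library summed to 929054 to 933500 TPM, and between 17285 and 18041 names lay above 0. The 8 neuroblastoma markers were present in every library, with summed levels of 4497 to 5395 TPM with DMSO and 5255 to 5445 TPM with NEN. By the threshold given below, 5 of the 8 rose (HAND2, DBH, TH, MYCN and ISL1), while 13.5% of all tested genes rose. The call of ISL1 was lost under 8 of the 15 alternative settings listed below. That of MYCN was lost with plain limma settings and without NEN replicate 1. The labels name bone marrow as the tissue, but of 10 blood cell markers 9 were under 1 TPM in every library, and MS4A1, CD3E and HBB were listed at 0 throughout. Their summed level was 0.715 to 2.47 TPM with DMSO and 0.310 to 0.452 TPM with NEN. Epithelial markers summed to 3.6 to 9.6 TPM and endothelial markers to 0.69 to 1.9 TPM over all libraries. Of the 6 stromal markers THY1, which neuronal cells also express, was the most abundant, and the list summed to 358.9 to 406.6 TPM with DMSO and 309.5 to 328.8 TPM with NEN. THY1 fell and PDGFRB rose. The part of these markers in the results below was not tested.

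After NEN treatment, 22 proteasome genes were lower at the mRNA level and 1 was higher. A gene was tested if its average over the 6 libraries reached 1 TPM, and 44 of the 48 proteasome genes did. Fold changes are given as the NEN mean less the DMSO mean of log2(TPM + 1), ± SE, a scale that understates the change of low genes. They come from limma fitted to all 12576 tested genes, and a gene is said to have risen or fallen when its p, adjusted over all tested genes by the Benjamini-Hochberg method, was under 0.05. By that rule 22 of the 44 fell, while 16.5% of all tested genes fell, or 20.6% of those averaging 5 TPM or more. The rise was that of PSME1, while 13.5% of all tested genes rose. In either direction 23 of the 44 were called, against 30.0% of all tested genes. The median fold change of the 44 genes was -0.24, and that of all tested genes was -0.025. A fold change below 0 was found for 36 of the 44, and for 52.4% of all tested genes. In 24 of the 44 genes the 3 NEN libraries all lay below the 3 DMSO libraries, as in 25.0% of all tested genes, and in 2 they all lay above, as in 21.8% of all tested genes. Every proteasome gene past the threshold had groups that did not overlap, so such separation adds no further support to a call. A gene that did not pass the threshold is not thereby shown to be unchanged. Those that fell kept between 57.5% and 86.6% of their mean DMSO level, with a median of 75.6%.

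**Figure D1:**
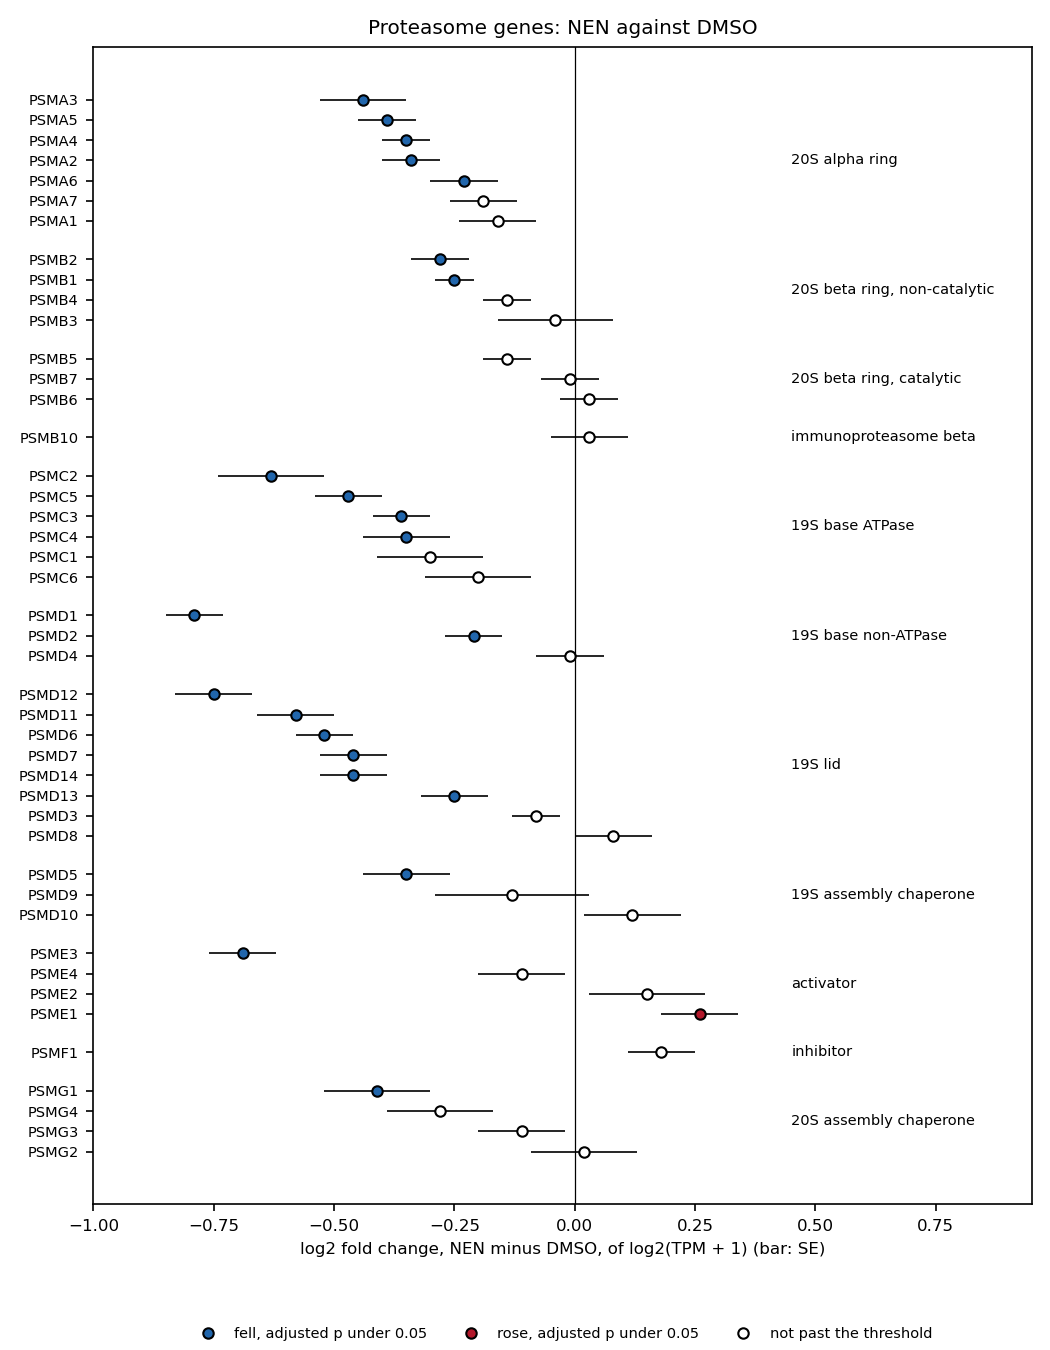
Log2 fold change (NEN minus DMSO, x axis) with its SE for the 44 tested proteasome genes, grouped by role (y axis), with filled points for an adjusted p under 0.05. Falls run to -0.79 for PSMD1 in the 19S base and -0.75 for PSMD12 in the lid, while PSMB5, PSMB6 and PSMB7 lie between -0.14 and 0.03.

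Relative to the DMSO mean, the median proteasome gene lay at -0.22, -0.22 and -0.26 on the log2 scale in NEN replicates 1 to 3, and within 0.01 of that mean in the DMSO replicates. For all tested genes the medians with NEN were 0.00, -0.05 and -0.03. Among all tested genes 16.5% fell, or 20.6% of those averaging 5 TPM or more. Of the 14 constitutive 20S genes 7 fell, with a median of -0.21, and of the 17 genes of the 19S base and lid 12 fell, with a median of -0.36. The difference between these groups of genes was not tested.

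**Figure D2:**
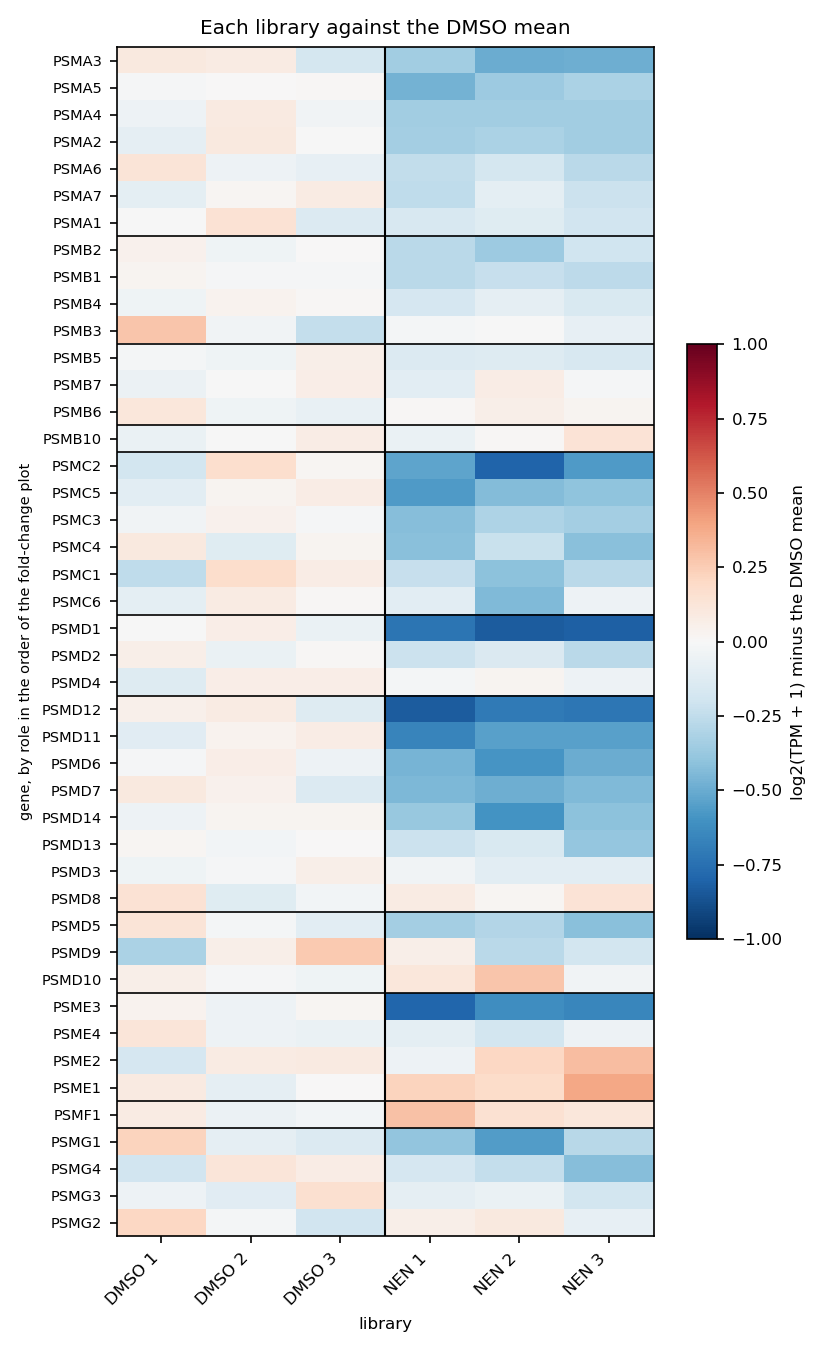
Each library (x axis) against the DMSO mean of the gene (color, log2 scale) for the 44 tested proteasome genes (y axis), in the order of the plot of fold changes. The NEN columns are alike, with the lowest values in PSMD1, PSMD12, PSME3 and PSMC2.

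In the alpha ring of the 20S core, 5 of 7 genes fell, 0 rose and the median was -0.34, while 16.5% of all tested genes fell and 13.5% rose. PSMA3 went from 207, 204.5 and 172 TPM with DMSO to 152, 137 and 138 TPM with NEN, a fold change of -0.44 ± 0.09 (adjusted p = 0.00854). PSMA5 lay at 106.5, 108 and 109 TPM with DMSO and 77.1, 83.4 and 86.1 TPM with NEN, and its DMSO libraries were nearly equal. PSMA4 had 312, 344 and 316 TPM with DMSO and 254.5, 254 and 253.5 TPM with NEN. In these 3 genes the groups did not overlap, and the fold changes were -0.39 ± 0.06 for PSMA5 and -0.35 ± 0.05 for PSMA4. PSMA2 was measured at 207, 236 and 219 TPM with DMSO and 174, 176.5 and 173 TPM with NEN (-0.34 ± 0.06). For PSMA6 the levels were 252, 222 and 218 TPM with DMSO and 193, 204 and 191 TPM with NEN, the smallest fall of the ring at -0.23 ± 0.07 (adjusted p = 0.0427). PSMA7, the most abundant proteasome mRNA of the line, had 604, 658 and 684 TPM with DMSO and 542, 606 and 557 TPM with NEN. Its highest NEN library exceeded its lowest DMSO library, and its fold change of -0.19 ± 0.07 did not pass the threshold (adjusted p = 0.0725, 95% interval -0.35 to -0.03), which it passed without DMSO replicate 1 (-0.24). PSMA1, at -0.16 ± 0.08, did not pass it either. PSMA8, which replaces PSMA7 in the testis, was listed at 0 in all 6 libraries.

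In the beta ring the non-catalytic subunits PSMB1 and PSMB2 fell, and the 3 catalytic subunits did not pass the threshold. PSMB1 went from 423, 413 and 412 TPM with DMSO to 345, 355 and 347 TPM with NEN, with little spread within each group and a fold change of -0.25 ± 0.04 (adjusted p = 0.00618). PSMB2 had 115, 109 and 112 TPM with DMSO and 92.9, 86.7 and 97.6 TPM with NEN, a fold change of -0.28 ± 0.06 (adjusted p = 0.0165). Both calls were lost after correction for transcript length and GC content, and that of PSMB2 also without NEN replicate 2. PSMB4 had a fold change of -0.14 ± 0.05 and PSMB3 of -0.04 ± 0.12, with adjusted p = 0.068 and 0.853 by limma. PSMB4 passed the threshold without DMSO replicate 1 (-0.16). PSMB5, the chymotrypsin-like subunit and the main site of bortezomib binding, lay at 305, 300.0 and 321 TPM with DMSO and 281, 282 and 276 TPM with NEN. Its NEN libraries were all below its DMSO libraries, but by little: the fold change was -0.14 ± 0.05 (adjusted p = 0.0663), with a 95% interval of -0.25 to -0.03. PSMB6, the caspase-like subunit, had 202, 180.5 and 177 TPM with DMSO and 188, 193.5 and 189.7 TPM with NEN, and PSMB7, the trypsin-like subunit, had 252, 261 and 274 TPM with DMSO and 244, 277 and 260.3 TPM with NEN. The groups overlapped in both, and the 95% intervals of the difference were -0.12 to 0.18 for PSMB6 and -0.16 to 0.14 for PSMB7. These intervals do not hold the fold changes of the alpha subunits that fell, other than that of PSMA6 for PSMB5. The interval of PSMB5 also holds the fold changes of PSMA1 (-0.16) and PSMA7 (-0.19), which did not pass the threshold. The alpha subunits that fell were picked by that threshold, and their own errors are left out here. The difference between subunits was not tested.

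All 6 ATPase genes of the 19S base had fold changes below 0, as had 52.4% of all tested genes. Of the 6, 4 fell, against 16.5% of all tested genes. PSMC2 went from 88.3, 113 and 102 TPM with DMSO to 69.2, 57.2 and 67.3 TPM with NEN, the widest change of the ring at -0.63 ± 0.11 (adjusted p = 0.00577), and NEN replicate 2 was its lowest library. PSMC5 had 206, 226 and 233 TPM with DMSO and 149, 163 and 167 TPM with NEN (-0.47 ± 0.07). PSMC3 had 140.3, 148 and 143 TPM with DMSO and 107, 116 and 113 TPM with NEN (-0.36 ± 0.06). In these 3 genes the groups lay well apart. PSMC4, the least abundant of the ring, had 70.7, 60.6 and 67.6 TPM with DMSO and 49.2, 56.7 and 49.2 TPM with NEN, and its groups nearly met between DMSO replicate 2 and NEN replicate 2 (-0.35 ± 0.09, adjusted p = 0.0228). The call of PSMC4 was lost without DMSO replicate 1 or 3 or NEN replicate 1 or 3, without a filter and after quantile normalization. PSMC1 had 206, 278.5 and 259 TPM with DMSO and 209.7, 184 and 204 TPM with NEN, where the low DMSO replicate 1 overlapped the NEN group, and its fold change of -0.30 ± 0.11 had an adjusted p = 0.0852 by limma. The threshold was passed without DMSO replicate 1 (-0.43). A pseudogene of this gene, PSMC1P1, reached 5.54 TPM, and reads that could belong to either make the PSMC1 level uncertain. PSMC6 had -0.20 ± 0.11 and overlapping groups.

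The non-ATPase part of the base holds 2 large scaffolds, PSMD1 and PSMD2, and the ubiquitin receptor PSMD4. PSMD1 had the largest fall of all proteasome genes, from 170.2, 179 and 163 TPM with DMSO to 103, 95.3 and 96.7 TPM with NEN. Its NEN mean was 57.5% of its DMSO mean, with a fold change of -0.79 ± 0.06 (adjusted p = 0.000335). PSMD2, which docks shuttle proteins, had 254, 232 and 245 TPM with DMSO and 210.0, 220.4 and 202 TPM with NEN, a smaller fall of -0.21 ± 0.06 (adjusted p = 0.0348), and lost its call without DMSO replicate 1 or 3 or NEN replicate 1 or 3 and under several other settings. The level of PSMD1 was 0.671, 0.773 and 0.667 times that of PSMD2 with DMSO and 0.488, 0.432 and 0.479 times with NEN. PSMD4 lay at 245, 279 and 279 TPM with DMSO and 264, 273 and 258 TPM with NEN, with overlapping groups and a 95% interval of -0.17 to 0.14. The other receptor of the base, ADRM1, which sits on PSMD1 and recruits the deubiquitinase UCHL5, does not carry a PSM name. ADRM1 went from 205, 179.8 and 193 TPM with DMSO to 108, 109.7 and 108 TPM with NEN, with a fold change of -0.82 ± 0.06 (adjusted p = 0.000335), and its 3 NEN values were nearly equal. The ratio of ADRM1 to PSMD4 was 0.837, 0.644 and 0.691 with DMSO and 0.410, 0.402 and 0.420 with NEN. These ratios are given as a description and were not tested.

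In the lid 6 of 8 genes fell and 0 rose, with a median of -0.46, while 16.5% of all tested genes fell and 13.5% rose. PSMD12 had 85.7, 87.6 and 75.7 TPM with DMSO and 46.1, 50.4 and 49.9 TPM with NEN, and its NEN mean was 58.8% of the DMSO mean (-0.75 ± 0.08, adjusted p = 0.000953). PSMD11, which clamps the lid to the 20S core, went from 57.0, 63.4 and 65.1 TPM with DMSO to 38.6, 42.0 and 42.1 TPM with NEN (-0.58 ± 0.08). PSMD6 had 103, 109 and 101 TPM with DMSO and 75.2, 68.9 and 73.5 TPM with NEN (-0.52 ± 0.06). In these 3 lid subunits the lowest DMSO value exceeded the highest NEN value by a wide margin. PSMD14, the deubiquitinase that removes the ubiquitin chain, went from 94.9, 101 and 100.3 TPM with DMSO to 75.5, 64.9 and 73.8 TPM with NEN, a fold change of -0.46 ± 0.07 (adjusted p = 0.0042). PSMD7, with which PSMD14 forms a dimer, had 145, 140.2 and 123.5 TPM with DMSO and 99.2, 96.8 and 99.8 TPM with NEN and the same fold change, -0.46 ± 0.07. PSMD13 had 87.9, 85.0 and 87.0 TPM with DMSO and 74.5, 77.7 and 65.9 TPM with NEN, a fold change of -0.25 ± 0.07 (adjusted p = 0.0384) whose call was lost without any 1 of the 3 DMSO libraries, without NEN replicate 1 or 3 and under several other settings. The other two lid genes did not pass the threshold. PSMD3 had 171, 175.5 and 184 TPM with DMSO and 172, 165 and 164.5 TPM with NEN, with a 95% interval of -0.20 to 0.04. PSMD8, the most abundant lid mRNA, lay at 342, 283 and 303 TPM with DMSO and 327.5, 313 and 339 TPM with NEN, with a 95% interval of -0.10 to 0.26. The ratio of PSMD12 to PSMD8 was 0.251, 0.309 and 0.250 with DMSO and 0.141, 0.161 and 0.147 with NEN.

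**Figure D3:**
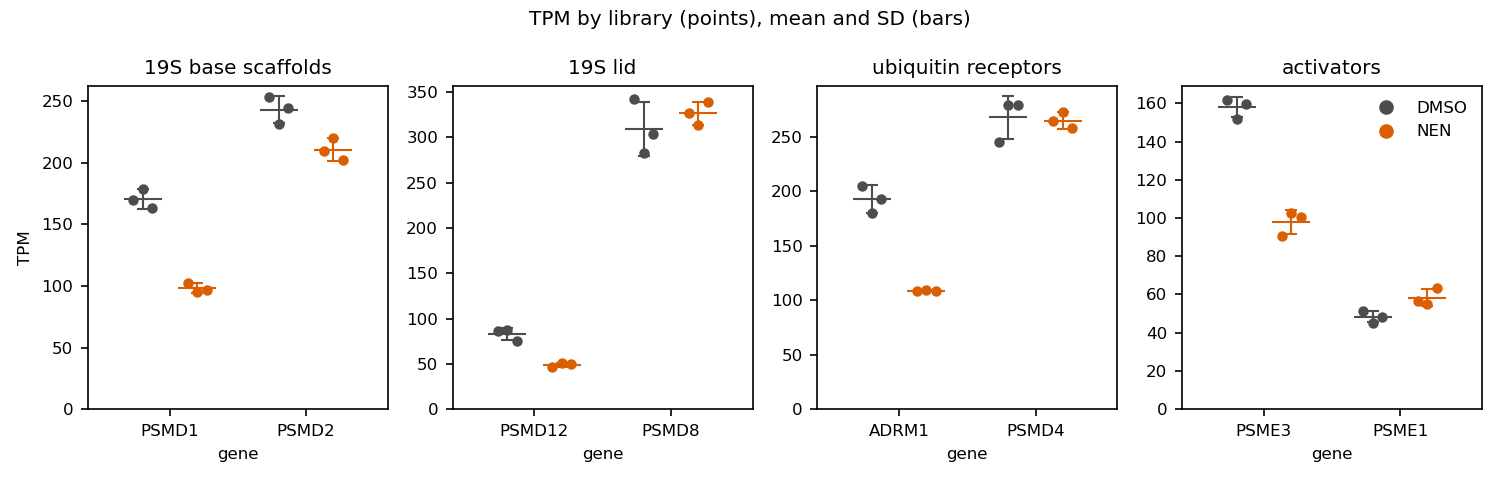
TPM of 8 genes (y axis, from 0) in each library (points), with the mean and SD of the 3 libraries per group (bars). PSMD1, PSMD12, ADRM1 and PSME3 have NEN points far under their DMSO points, while PSMD8 and PSMD4 overlap and PSME1 is higher with NEN.

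Promoters are shown for lid and base genes that fell (PSMD12, PSMC2 and PSMD6) and for lid genes that did not pass the threshold (PSMD8 and PSMD3), so that genes of the same particle can be compared. The sequences are the 250 bases before the annotated start, 5′ to 3′ on the gene's strand, from RefSeq on GRCh38.p14, a build other than the hg19 of the files. They lie at chr17:67366578-67366827 on the minus strand for PSMD12, chr7:103347393-103347642 on the plus strand for PSMC2, chr3:64023495-64023744 on the minus strand for PSMD6, chr19:38374321-38374570 on the plus strand for PSMD8 and chr17:39980557-39980806 on the plus strand for PSMD3. Capitals mark matches, on either strand, to TGACNNNGC (the core of the element bound by NFE2L1 and NFE2L2), to CCAAT (the box bound by NF-Y) or to CCGGAAG (a core bound by ETS factors, searched after the sequences had been read). No matches of different motifs overlapped in the proteasome promoters.
PSMD12: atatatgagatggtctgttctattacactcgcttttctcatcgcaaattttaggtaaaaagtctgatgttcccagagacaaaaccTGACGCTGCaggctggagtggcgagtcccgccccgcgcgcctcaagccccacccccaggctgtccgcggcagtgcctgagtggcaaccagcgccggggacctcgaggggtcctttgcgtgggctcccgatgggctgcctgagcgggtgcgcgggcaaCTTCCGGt
PSMC2: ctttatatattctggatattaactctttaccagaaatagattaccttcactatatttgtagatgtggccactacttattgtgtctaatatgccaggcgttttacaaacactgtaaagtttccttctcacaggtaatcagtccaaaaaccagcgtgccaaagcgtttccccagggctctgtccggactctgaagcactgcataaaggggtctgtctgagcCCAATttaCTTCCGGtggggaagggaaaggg
PSMD6: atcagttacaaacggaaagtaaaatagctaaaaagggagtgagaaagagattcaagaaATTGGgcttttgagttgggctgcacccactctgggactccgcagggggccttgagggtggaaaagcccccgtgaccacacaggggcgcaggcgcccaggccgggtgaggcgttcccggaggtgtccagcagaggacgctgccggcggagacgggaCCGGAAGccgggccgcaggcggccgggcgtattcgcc
PSMD8: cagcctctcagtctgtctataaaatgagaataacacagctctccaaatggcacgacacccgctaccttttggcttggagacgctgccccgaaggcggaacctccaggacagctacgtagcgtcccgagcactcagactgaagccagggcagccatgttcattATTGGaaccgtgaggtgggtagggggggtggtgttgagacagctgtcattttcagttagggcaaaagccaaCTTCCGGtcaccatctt
PSMD3: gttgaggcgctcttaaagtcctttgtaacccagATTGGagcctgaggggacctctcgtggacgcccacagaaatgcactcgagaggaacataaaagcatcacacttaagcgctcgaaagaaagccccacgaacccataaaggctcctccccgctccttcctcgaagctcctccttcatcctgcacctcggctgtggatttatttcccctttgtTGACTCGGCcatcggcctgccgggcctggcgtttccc
The CCGGAAG core stood near the start in PSMD12, PSMC2 and PSMD6 and also in PSMD8, and PSMD3 held no such match but had the TGACNNNGC core there. The promoters shown are not typical of the genes that fell, among which PSMD13 was the only other one with CCGGAAG. PSMD1 and PSMD11, which also fell, held no match to any of these motifs, and PSMD7 and PSMD14 held CCAAT alone. Of the proteasome genes 42 of 48 had a promoter in the table, and PSMA7, PSMB1, PSMB6, PSMB7, PSMD4 and PSMG3 had none. TGACNNNGC was found for 13 of the 42 (31.0%), against 13.2% of all 27305 genes in the table. It was present for 5 of 21 genes that fell and 6 of 16 genes that were tested and not called. CCGGAAG was found for 11 of the 42 (26.2%), against 10.2% of all, with 4 of 21 and 6 of 16 in the same groups. The 11 include PSMD12, PSMC2, PSMD6 and PSMD8, whose sequences had been read before this motif was chosen. Its share is therefore not independent of that choice. CCAAT was found for 19 of the 42 (45.2%), against 37.0% of all, with 12 of 21 that fell and 5 of 16 not called. These are matches of letters in a window, and no difference between the groups was tested.

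Of the 7 assembly chaperones with a PSM name 2 fell, PSMD5 and PSMG1, while 16.5% of all tested genes fell. Among chaperones of the 19S base, PSMD5 had 42.9, 38.7 and 36.4 TPM with DMSO and 30.8, 31.9 and 29.2 TPM with NEN, a fold change of -0.35 ± 0.09 (adjusted p = 0.0211), and its call was lost with length and GC correction and without DMSO replicate 2 or NEN replicate 1 or 3. An antisense transcript, PSMD5-AS1, was listed at 8.53 to 11.5 TPM. Since the strand setting of the quantification is not given in the sources used here, reads of the pair may not be separated. PSMD9 and PSMD10 (gankyrin) had fold changes of -0.13 ± 0.16 and 0.12 ± 0.10, with adjusted p = 0.557 and 0.383 by limma. PAAF1, a chaperone of the base with no PSM name, rose from 19.3, 14.5 and 13.2 TPM with DMSO to 25.9, 24.8 and 24.8 TPM with NEN (0.67 ± 0.14, adjusted p = 0.0113). Chaperones of the 20S core are the pairs PSMG1 with PSMG2 and PSMG3 with PSMG4, which build the alpha ring, and POMP, which guides the beta ring. The level of PSMG1 was 132, 106 and 102.5 TPM with DMSO and 85.5, 76.3 and 93.1 TPM with NEN, a fold change of -0.41 ± 0.11 (adjusted p = 0.0328), and its call was lost without DMSO replicate 1 or 2 or NEN replicate 1 or 2 and under 4 further settings. Its partner PSMG2 had 0.02 ± 0.11, PSMG3 had -0.11 ± 0.09 and PSMG4 had -0.28 ± 0.11, none past the threshold, with PSMG4 past it without DMSO replicate 1 (-0.37). POMP went from 111, 128 and 130.4 TPM with DMSO to 79.1, 95.3 and 82.5 TPM with NEN, a fold change of -0.52 ± 0.09 (adjusted p = 0.00684).

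The activators moved in both directions. PSME3, a nuclear activator that opens the core without ATP or ubiquitin, fell from 162, 152 and 159.9 TPM with DMSO to 90.6, 102 and 100.3 TPM with NEN. The NEN mean was 61.9% of the DMSO mean and the fold change -0.69 ± 0.07 (adjusted p = 0.000696), the third largest fall of the proteasome genes. PSME1, which with PSME2 forms the interferon-inducible activator, had 51.3, 45.3 and 48.4 TPM with DMSO and 56.4, 55.0 and 63.3 TPM with NEN and was the single gene that rose (0.26 ± 0.08, adjusted p = 0.0469). That rise was close to the threshold and was lost without DMSO replicate 2 or 3, without any 1 of the 3 NEN libraries, without a filter and with plain limma settings. PSME2 had 30.6, 36.6 and 36.7 TPM with DMSO and 33.3, 40.1 and 43.0 TPM with NEN, with overlapping groups and a 95% interval of -0.12 to 0.43. The level of PSME1 was 0.317, 0.298 and 0.302 times that of PSME3 with DMSO and 0.622, 0.537 and 0.631 times with NEN. PSME4, an activator known from testis and from the turnover of acetylated histones, had 26.4, 23.4 and 23.1 TPM with DMSO and 22.6, 21.2 and 23.4 TPM with NEN (-0.11 ± 0.09, adjusted p = 0.379 by limma). PSMF1, the inhibitor PI31, had 79.8, 72.2 and 73.6 TPM with DMSO and 92.3, 83.4 and 81.2 TPM with NEN. All NEN libraries of PSMF1 lay above its DMSO libraries, but its fold change of 0.18 ± 0.07 did not pass the threshold (adjusted p = 0.0997) except after quantile normalization (0.26) or correction for length and GC content (0.22).

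The immunoproteasome subunits differed widely in level. PSMB8 had 0.242, 0.0458 and 0.0889 TPM with DMSO and 0.112, 0.379 and 0.201 TPM with NEN, and PSMB9 had 0.00595, 0.0227 and 0 TPM with DMSO and 0.0101, 0.0879 and 0.0292 TPM with NEN. Both were near 0 in every library, below the filter, and no fold is given. PSMB10 lay at 54.2, 56.5 and 59.7 TPM with DMSO and 54.1, 57.3 and 62.6 TPM with NEN, with overlapping groups and a 95% interval of -0.15 to 0.21. Its level was 21.5%, 21.6% and 21.8% of that of PSMB7, the subunit it replaces, with DMSO, and 22.2%, 20.7% and 24.1% with NEN. PSMB8 was at most 0.135% of PSMB5 and PSMB9 at most 0.0455% of PSMB6 in any library. PSMB8 and PSMB9 lie in the MHC class II region beside the peptide transporter genes TAP1 and TAP2, and TAP1 is transcribed from a promoter shared with PSMB9. TAP1 was listed at 0.00491, 0.0172 and 0.0129 TPM with DMSO and 0.163, 0.103 and 0.0914 TPM with NEN, also near 0, while TAP2 had 5.57, 3.98 and 4.77 TPM with DMSO and 8.14, 6.65 and 5.66 TPM with NEN. PSMB11, the thymus subunit, was listed at 0 in all libraries. Of 14 neighbours of these genes and interferon regulators 12 were tested, of which 1 rose and 0 fell. Over all tested genes 13.5% rose and 16.5% fell. The gene of the list that rose was IRF2, from 12.0, 12.8 and 14.3 TPM with DMSO to 19.6, 21.2 and 19.2 TPM with NEN (0.58 ± 0.10, adjusted p = 0.00585). NLRC5, an activator of MHC class I genes, had 2.80, 3.05 and 2.25 TPM with DMSO and 1.94, 1.99 and 1.73 TPM with NEN and missed the threshold, with adjusted p = 0.179 by limma. STAT2, TAP2 and IFNGR1 had the next smallest adjusted p-values, with fold changes of 0.63 ± 0.21 (adjusted p = 0.0567), 0.43 ± 0.17 (adjusted p = 0.0999) and 0.32 ± 0.12 (adjusted p = 0.0983). STAT2 passed the threshold with median-ratio scaling, plain limma settings or correction for length and GC content, and IFNGR1 with that correction.

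**Figure D4:**
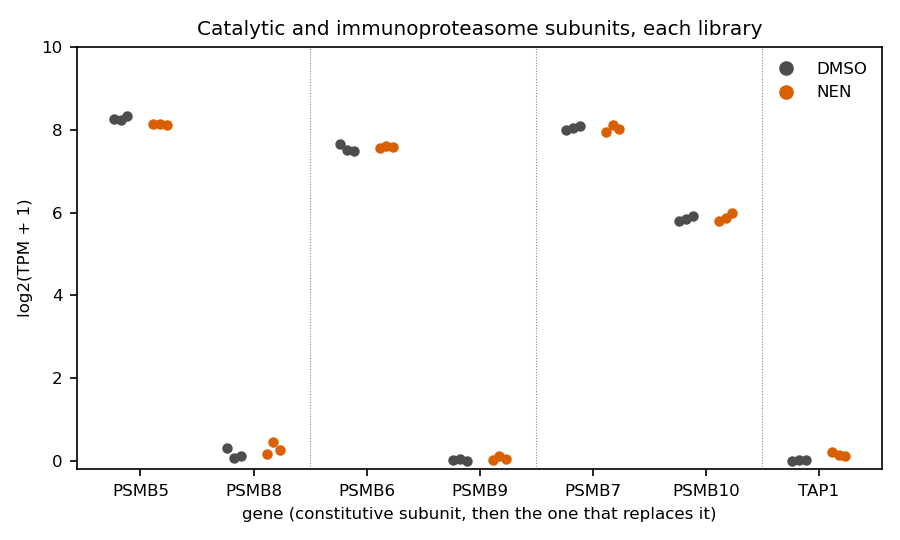
Level on the log2(TPM + 1) scale (y axis) of the catalytic subunits, each beside the immunoproteasome subunit that replaces it, and of TAP1, in each library (points). PSMB8, PSMB9 and TAP1 lie at the bottom of the scale in both groups, while PSMB10 lies between 54.1 and 62.6 TPM.

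The promoters of PSMB9 and PSMB10 are given in the same form, since one gene was near 0 and the other was well expressed. They lie at chr6:32853942-32854191 on the plus strand for PSMB9 and chr16:67936851-67937100 on the minus strand for PSMB10 on GRCh38.p14, with capitals for the same 3 motifs.
PSMB9: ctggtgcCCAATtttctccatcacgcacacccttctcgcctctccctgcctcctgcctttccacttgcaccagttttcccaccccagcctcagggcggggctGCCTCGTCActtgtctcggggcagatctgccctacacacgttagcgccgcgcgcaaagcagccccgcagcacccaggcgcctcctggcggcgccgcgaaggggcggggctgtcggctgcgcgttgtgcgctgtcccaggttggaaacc
PSMB10: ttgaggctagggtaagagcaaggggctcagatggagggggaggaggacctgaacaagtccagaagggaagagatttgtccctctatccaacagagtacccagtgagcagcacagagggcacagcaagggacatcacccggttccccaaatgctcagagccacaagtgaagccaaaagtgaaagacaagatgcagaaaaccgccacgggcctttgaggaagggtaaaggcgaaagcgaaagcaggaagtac
PSMB9 held a TGACNNNGC and a CCAAT match, and PSMB10 held none of the 3 motifs in this window.

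Although the subunits of the particle occur in equal numbers, their mRNAs did not. In the DMSO libraries the mean level ranged from 108 TPM for PSMA5 to 649 TPM for PSMA7 within the constitutive 20S core, and from 61.8 TPM for PSMD11 to 309.6 TPM for PSMD8 within the 19S base and lid. Within the base and lid the ratio of the highest to the lowest subunit was 6.0, 4.67 and 4.66 with DMSO and 8.48, 7.46 and 8.05 with NEN, while within the core it was 5.67, 6.11 and 6.30 with DMSO and 7.03, 7.27 and 6.46 with NEN. PSMD8, the highest in the 19S, did not pass the threshold, and PSMD11, the lowest, fell. All 48 genes took 0.791%, 0.801% and 0.790% of the listed TPM with DMSO and 0.679%, 0.690% and 0.681% with NEN. The mean level per subunit of the constitutive core went from 285.9 ± 3.6 to 250.3 ± 5.7 TPM, and that of the 19S base and lid from 153.4 ± 3.1 to 125.7 ± 1.4 TPM (SD, n = 3). The ratio of the 19S to the 20S mean was 0.522, 0.541 and 0.547 with DMSO and 0.513, 0.483 and 0.511 with NEN, so that the groups did not overlap, though by a small gap. Summed over the 3 catalytic subunits the NEN level was 96.4% of the DMSO level. It was 89.3% for the non-catalytic beta subunits, 85.0% for the lid and 84.2% for the non-ATPase base. For the alpha ring it was 82.6% and for the ATPases 76.5%. Such sums follow the most abundant genes, as in the lid, which holds PSMD8 and had a median fold change of -0.46.

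Genes that work with the proteasome but carry other names were described as 5 lists. Of 20 further subunits, assembly factors, shuttles and bound enzymes 7 fell and 3 rose, with a median of -0.10. Over all tested genes 16.5% fell and 13.5% rose, so the share that rose was close to that of all genes. Besides ADRM1 and POMP, USP14, a deubiquitinase on PSMD2, went from 61.5, 57.3 and 50.3 TPM with DMSO to 36.7, 35.7 and 31.4 TPM with NEN (-0.69 ± 0.10, adjusted p = 0.00293). UCHL5, the deubiquitinase on ADRM1, had 98.2, 103 and 80.9 TPM with DMSO and 67.2, 56.2 and 60.1 TPM with NEN (-0.61 ± 0.11, adjusted p = 0.00637). The smaller falls were those of UBE3C (-0.34 ± 0.07), a ligase bound to the particle, RAD23B (-0.24 ± 0.07), a shuttle, and PITHD1 (-0.22 ± 0.07). Of these, RAD23B and PITHD1 lost the call under most alternatives. AKIRIN2, which brings proteasomes into the nucleus, rose from 56.4, 55.3 and 51.7 TPM with DMSO to 84.0, 74.6 and 67.5 TPM with NEN (0.46 ± 0.09, adjusted p = 0.00905). SEM1, the smallest lid subunit, is listed under its older symbol SHFM1 and had 104, 172 and 148 TPM with DMSO and 120.1, 128 and 149 TPM with NEN, with overlapping groups.

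**Figure D5:**
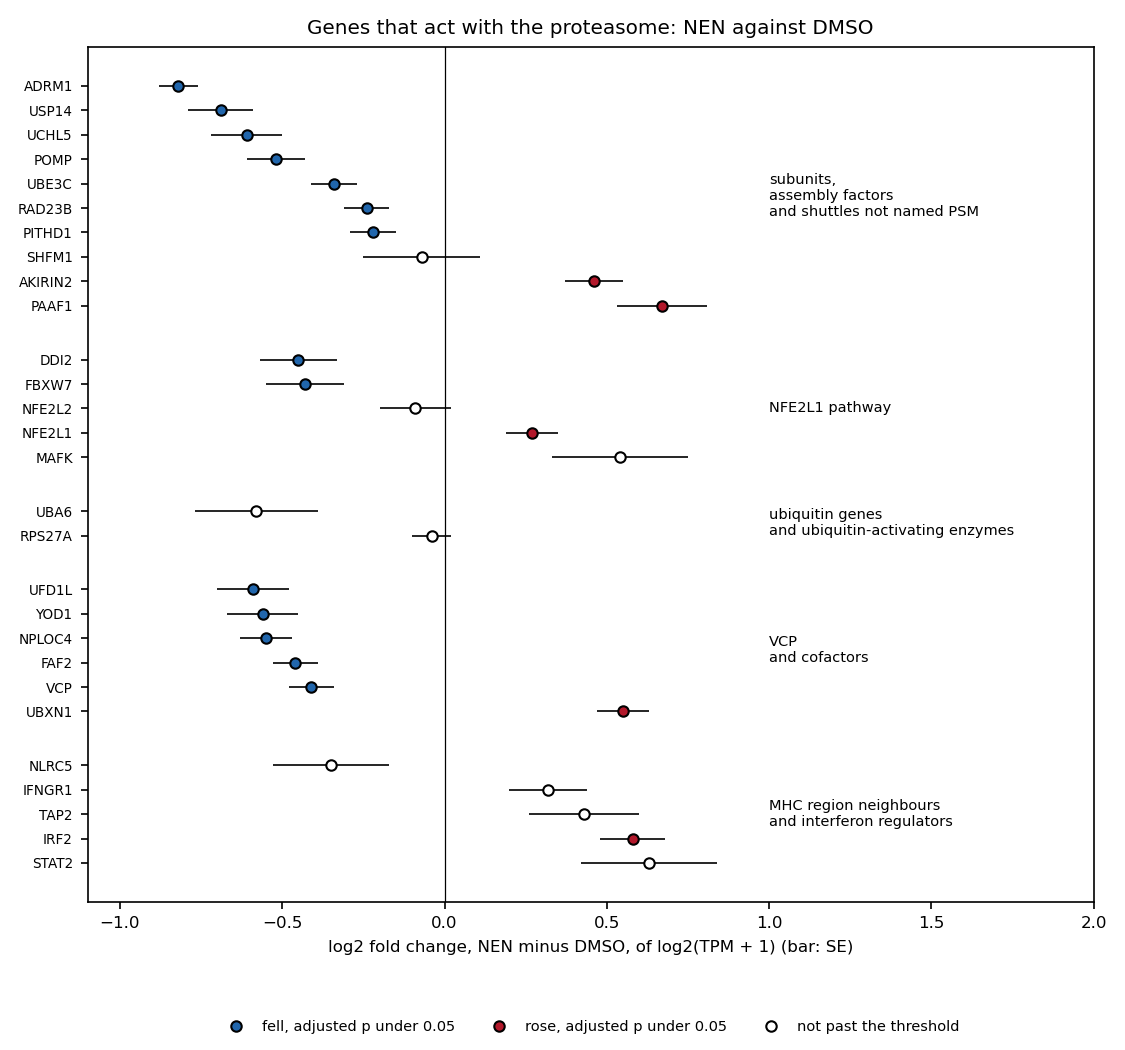
Log2 fold change (NEN minus DMSO, x axis) with its SE for the tested partner genes named in the text (y axis), grouped by list, with filled points for an adjusted p under 0.05. ADRM1 (-0.82) is the lowest and PAAF1 (0.67) the highest.

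Of 12 genes of the NFE2L1 pathway 11 were tested, of which 1 rose and 2 fell, shares close to the 13.5% and 16.5% of all tested genes that did so, so the values below describe single genes. NFE2L1 itself went from 147, 164 and 174 TPM with DMSO to 181, 197 and 205 TPM with NEN (0.27 ± 0.08, adjusted p = 0.0423), a rise that was no longer called when DMSO replicate 1 or 2 or any NEN library was left out, or without a filter, with plain limma settings or with length and GC correction. DDI2, the protease that cuts NFE2L1 into its active form, had 8.91, 9.99 and 9.19 TPM with DMSO and 6.54, 6.06 and 7.17 TPM with NEN (-0.45 ± 0.12, adjusted p = 0.0253), a call lost without DMSO replicate 2 or 3 or NEN replicate 1 or 2. FBXW7, a ligase subunit with NFE2L1 among its substrates, had -0.43 ± 0.12 and lost its call on leaving out any 1 of the DMSO libraries or NEN replicate 1 or 2, without a filter and with length and GC correction. NFE2L2, the related factor of the antioxidant response, had 44.4, 39.8 and 35.5 TPM with DMSO and 40.7, 33.7 and 37.5 TPM with NEN (adjusted p = 0.556 by limma). MAFK, a dimer partner, was low, with 0.887, 1.11 and 1.5 TPM with DMSO and 1.95, 2.37 and 2.10 TPM with NEN, and its fold change of 0.54 ± 0.21 did not pass the threshold except with plain limma settings.

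Among the ubiquitin and ubiquitin-activating genes, RPS27A, a fusion of ubiquitin with a ribosomal protein, had -0.04 ± 0.06 and UBA6, an activating enzyme, -0.58 ± 0.19, with adjusted p = 0.634 and 0.0582 by limma. UBA6 passed the threshold without NEN replicate 2 (-0.74) or with a minimum of 5 TPM.

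VCP, the ATPase that extracts ubiquitinated proteins for the proteasome, fell, as did its adaptors NPLOC4 and UFD1. In its list 5 of 12 genes fell and 1 rose, with a median of -0.20, while 16.5% of all tested genes fell and 13.5% rose. VCP went from 222, 189 and 200.1 TPM with DMSO to 156, 159 and 144 TPM with NEN (-0.41 ± 0.07, adjusted p = 0.00701). NPLOC4 had 66.8, 57.6 and 64.4 TPM with DMSO and 43.6, 41.9 and 42.0 TPM with NEN (-0.55 ± 0.08, adjusted p = 0.00246), and its partner UFD1, listed as UFD1L, had 136, 116 and 104 TPM with DMSO and 72.1, 80.2 and 82.3 TPM with NEN (-0.59 ± 0.11, adjusted p = 0.00652), a call lost after correction for length and GC content. FAF2, which recruits VCP to the endoplasmic reticulum, had -0.46 ± 0.07 and the deubiquitinase YOD1 -0.56 ± 0.11. UBXN1, another cofactor, rose from 82.9, 81.3 and 72.0 TPM with DMSO to 124, 113 and 110.2 TPM with NEN (0.55 ± 0.08, adjusted p = 0.00267). The groups did not overlap in any of these 6 genes, but the genes were picked by the call, so this adds no support to it.

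The calls of 14 of the 23 proteasome genes held under all 15 alternative settings. They were PSMA2, PSMA3, PSMA4, PSMA5, PSMC2, PSMC3, PSMC5, PSMD1, PSMD6, PSMD7, PSMD11, PSMD12, PSMD14 and PSME3. The PSMA6 call was lost without DMSO replicate 2 or any 1 of the 3 NEN libraries, and under 6 further settings. Pseudogenes of these genes hold 31 listed names, none above 5.54 TPM.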

How the data were processed

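Grouping followed the treatment label: 3 SK-N-BE(2) libraries with DMSO and 3 with NEN (1 µM, 24 h), all by RNA-seq. Trizol was used for RNA extraction, per the labels' protocols, which name polyA capture and rRNA removal as alternatives. The submitters' processing notes name kallisto and hg19. For neither the version nor the strand setting was a statement found in the sources used here. The authors deposited TPM per gene name, with 1 value column per library. TPM holds no read totals, so no depth or counting error can be given.

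The 12576 of 35130 genes that averaged 1 TPM or more were taken as log2(TPM + 1) and fitted with limma 3.58.1 in R 4.3.3 with group as the single factor (trend and robust on). Tests are two-sided, and p-values were adjusted by the Benjamini-Hochberg method across the 12576 genes, with 0.05 as threshold. The 95% intervals come from the same fit. The fit was tested on simulated data with far fewer changed genes than were called here. Changes of the size of the median fall of the members were mostly missed there. How many such changes were missed in the real data is not known. Members and lists were chosen with earlier results of these data known, and lists are described by counts and medians only. Named in full are members past the threshold, the catalytic and immunoproteasome subunits, the activators and PSMF1, and of each associated list up to 4 genes with the smallest adjusted p, with NFE2L1, NFE2L2, DDI2, POMP, ADRM1 and VCP. PSMD3, PSMD4, PSMD8, PSMA7, PSMC1, UBE3C, RAD23B, PITHD1, PAAF1, AKIRIN2, SHFM1, YOD1, NLRC5, TAP1, PSMD5-AS1 and the marker genes were named after their values were seen. Of 97 list symbols 97 were found, 3 of them under an older symbol, and some list genes are not reported here.

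The alternatives tried were a fit with the replicate number as a block, each library left out in turn, no filter, a minimum of 5 TPM, median-ratio scaling, quantile normalization, pseudocounts of 0.1 and 5, plain limma settings and a loess correction for transcript length and GC content (span 0.3, degree 1, lengths from GENCODE 29 for 93.4% of tested genes and all 44 tested members). Figures were drawn with matplotlib 3.10.9.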

Additional observations from a re-analysis of the deposited data

How the results depend on the processing

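Of the 22 proteasome genes that fell, 16 to 19 also fell on leaving out 1 library and 15 to 22 under the other 9 alternatives, the fewest with length and GC correction. Without DMSO replicate 1, 18 of them fell beside 4 others. The 1 rise became 0 with the replicate block, with no filter and with plain limma settings, 2 with quantile normalization and with length and GC correction, and 0 to 1 on leaving out 1 library. Falls of the 7 constitutive PSMB genes went from 2 to 0 with length and GC correction and were 1 to 3 on leaving out 1 library. The 1 fall of the PSMG genes became 0 with no filter, quantile normalization, plain limma settings or length and GC correction, and was 0 to 1 on leaving out 1 library. The median log2 fold change of the tested members, -0.241, was -0.214 with median-ratio scaling, -0.175 with quantile normalization, -0.191 with length and GC correction and -0.246 to -0.209 on leaving out 1 library. Over all genes, 1063 to 1554 rose on leaving out 1 library (1699 with all), the lowest without NEN replicate 1, and 1402 to 1914 fell (2074 with all). The cause of these changes was not tested.

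Signs changed for genes near 0 that were not past the threshold. Median-ratio scaling gave 0.015 for PSMB7 and 0.014 for PSMD4, and quantile normalization gave 0.038 for PSMB3, 0.051 for PSMB7 and 0.053 for PSMD4. Length and GC correction gave 0.033 for PSMB7, -0.14 for PSMB10, 0.003 for PSMD4, 0.015 for PSME4, 0.014 for NFE2L2 and 0.026 for RPS27A. On leaving out 1 library, ranges were -0.16 to 0.10 for PSMB3, -0.0048 to 0.089 for PSMB6, -0.057 to 0.033 for PSMB7, -0.026 to 0.077 for PSMB10, -0.076 to 0.018 for PSMD4, -0.074 to 0.13 for PSMG2 and -0.085 to 0.0033 for RPS27A.

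Replicate numbers are shared between the groups, but nothing in the labels pairs them. Deviations from the group means of same-numbered libraries correlated at 0.0117, -0.00755 and -0.0278 across genes, so the numbers were not taken as pairs. With the replicate block, 18 members fell and 0 rose, the calls of PSMA6, PSMC4, PSMD2, PSMD13, PSME1, DDI2 and FBXW7 were among those lost, and over all genes 1649 fell and 1328 rose.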
